A study of Mus musculus with 3 samples.

Results

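The chemokine genes Ccl2, Ccl7, Ccl8, Ccl11, Ccl5, Cxcl1, Cxcl2 and Cxcl3 encode attractants of monocytes, neutrophils and related leukocytes, and these 8 genes were listed by name out of 31053 genes counted. Leukocytes leave the blood where cells of a tissue secrete chemokines, small proteins that bind receptors on leukocytes and guide their movement. Ccl2 and Ccl7 draw monocytes through the receptor Ccr2, and Cxcl1, Cxcl2 and Cxcl3 draw neutrophils through Cxcr2. Ccl8, Ccl11 and Ccl5 act on overlapping receptors of monocytes, eosinophils and T cells. In skin, macrophages, fibroblasts and endothelium are known sources of these proteins, and most of the genes are switched on quickly by injury or inflammation.

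The messenger RNA of the 8 genes was measured by droplet single-cell sequencing of ear skin in 3 libraries. The adult Lang-DTA library came from 8-week-old Langerin-DTA mice (4 males and 6 females), which carry diphtheria toxin A under regulatory sequence of human Langerin, a gene of Langerhans cells, the dendritic cells of the epidermis. The adult WT library came from C57BL/6J mice of 8 weeks (6 males and 4 females), and the young WT library from C57BL/6J mice of 4 weeks (5 males and 3 females). Per the labels, none of the mice was treated, hemizygous Langerin-DTA males were bred with WT females, and WT littermates served as controls. Lymphatic endothelial, blood endothelial, CD45+ and CD45-CD31- cells were sorted from pooled ears and mixed at equal proportions, so the makeup of a library reflects the sort and not the skin. With 1 library per condition there were no replicates, and differences between libraries have no replicate check and no p-value. All intervals below are 95% intervals of counting error only.

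After filters, 12941 cells were kept in adult Lang-DTA, 12621 in adult WT and 12399 in young WT, with 8569, 8479 and 9823 UMIs (unique molecular identifiers, each standing for 1 captured RNA molecule) in the median cell. Cells were gated on raw UMIs of marker genes into lymphatic endothelium (2367, 1563 and 4072 cells), blood endothelium (2651, 3506 and 1728), fibroblasts (495, 387 and 426), keratinocytes (2742, 2486 and 1348) and macrophages (143, 72 and 258), in the same order of libraries. Langerhans cells, gated on Cd207, numbered 6 in adult Lang-DTA, 449 in adult WT and 608 in young WT. The 7 lymphatic markers, Prox1 and Mmrn1 of the gates among them, summed to 6402, 14425 and 10863 CPM (UMIs of a gene per 1000000 UMIs of the gate) in the lymphatic gate and to 38.7, 17.2 and 24.5 CPM in the blood gate. Female-called cells numbered 7863 in adult Lang-DTA, 5500 in adult WT and 5316 in young WT, and male-called cells 3871, 5897 and 6150, so sexes differed between the pools. Pairs of libraries shared 39 to 50 cell barcodes.

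The genes lie in 2 clusters and 1 separate locus (GRCm38, GENCODE M21). Ccl2 (chr11:82035571-82037453), Ccl7 (chr11:82045712-82047525), Ccl11 (chr11:82057823-82062955) and Ccl8 (chr11:82115185-82116799) sit on the plus strand within 81.2 kb, and Ccl5 (chr11:83525778-83530518) sits on the minus strand of the same chromosome. Cxcl3 (chr5:90786103-90789600), Cxcl1 (chr5:90891241-90893115) and Cxcl2 (chr5:90903871-90905938) lie within 119.8 kb on the plus strand. Promoter sequence from RefSeq (GRCm38.p6) was matched for 4 of the 8 genes, Cxcl1, Cxcl2, Cxcl3 and Ccl8. The stretches from position -130 to -11 before the start site are shown because the CXC genes of the cluster share a run of letters there, and Ccl8 serves for contrast. Positions count from the RefSeq start, which for Cxcl2 lies downstream of the GENCODE start, so that the end of its stretch lies within the gene as GENCODE gives it. Capitals mark that run, GGGAATTTCCC, the longest found upstream of the start site in all 3 CXC windows. It has the form of a binding site of NF-kB, a transcription factor of inflammation.
Cxcl1 (chr5:90891115-90891234, plus strand): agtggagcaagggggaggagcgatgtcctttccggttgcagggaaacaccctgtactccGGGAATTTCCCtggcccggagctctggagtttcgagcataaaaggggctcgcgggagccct
Cxcl2 (chr5:90903769-90903888, plus strand): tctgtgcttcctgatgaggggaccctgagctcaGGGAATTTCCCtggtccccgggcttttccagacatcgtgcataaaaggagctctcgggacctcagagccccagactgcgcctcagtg
Cxcl3 (chr5:90785971-90786090, plus strand): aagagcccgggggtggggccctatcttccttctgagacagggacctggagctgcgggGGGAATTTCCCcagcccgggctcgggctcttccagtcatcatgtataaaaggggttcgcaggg
Ccl8 (chr11:82115055-82115174, plus strand): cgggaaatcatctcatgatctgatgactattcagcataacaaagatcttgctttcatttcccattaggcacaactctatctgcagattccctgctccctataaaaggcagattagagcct

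The run of 11 bases began at -71 in Cxcl1, -97 in Cxcl2 and -73 in Cxcl3. Of 32851 promoter windows of the same length, 14 (0.0426%) held it on either strand. A longer shared run, of 13 bases, lay downstream of the start sites. The Ccl8 window did not hold GGGAATTTCCC but held TATAAAA at -32, as Cxcl3 did at -30, and 5.48% of windows held TATAAAA on either strand. TGANTCA, a motif of the AP-1 factors found in 7.81% of windows, had no match in these 4. These matches describe letters in the windows and not binding.

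The cell types differed in which chemokines they held. In both WT libraries, macrophages held the highest Ccl2, Ccl7, Ccl8 and Cxcl2 of the 5 gates, and fibroblasts the highest Ccl11 and Cxcl1. Ccl8 lay mostly in macrophages, at 908 CPM in adult Lang-DTA, 864 in adult WT and 773 in young WT, which held 88.3%, 66.6% and 98.2% of its UMIs. No other gate of the 5 exceeded 20.3 CPM. Macrophage Cxcl2 was at 1724 CPM in adult Lang-DTA, 2131 in adult WT and 2287 in young WT, the highest level of any of the 8 genes in the 5 gates. Langerhans cells also held Cxcl2, at 998 CPM in adult WT and 1359 CPM in young WT. They accounted for 60.1% of the Cxcl2 UMIs in adult WT and 45.6% in young WT, whereas the adult Lang-DTA library had too few of them to describe. The 3 Langerhans cell markers, H2-Ab1 among them, summed to 1822, 3358 and 2288 CPM in the macrophage gate of adult Lang-DTA, adult WT and young WT, and their part in its Cxcl2 was not tested.

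Ccl11, an eosinophil attractant also called eotaxin, was at 102 CPM in adult Lang-DTA, 97.0 in adult WT and 28.3 in young WT fibroblasts. Pericytes, gated on Rgs5, were the other site of Ccl11, with 44.6, 107 and 72.7 CPM in the same order. Pericytes also held the highest Cxcl1 of the gates described, at 610, 731 and 848 CPM. Ccl5, which recruits T cells and monocytes, was highest in T cells, gated on Cd3d, Cd3e and Cd3g, at 104, 115 and 104 CPM. Cells with a Ccl5 UMI made up 4.87%, 7.86% and 2.20% of T cells. Cxcl3 was scarcely detected, with 48 UMIs in adult Lang-DTA, 14 in adult WT and 4 in young WT, and 93.8% of those in adult Lang-DTA came from a single cell outside the gates.

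**Figure D1:**
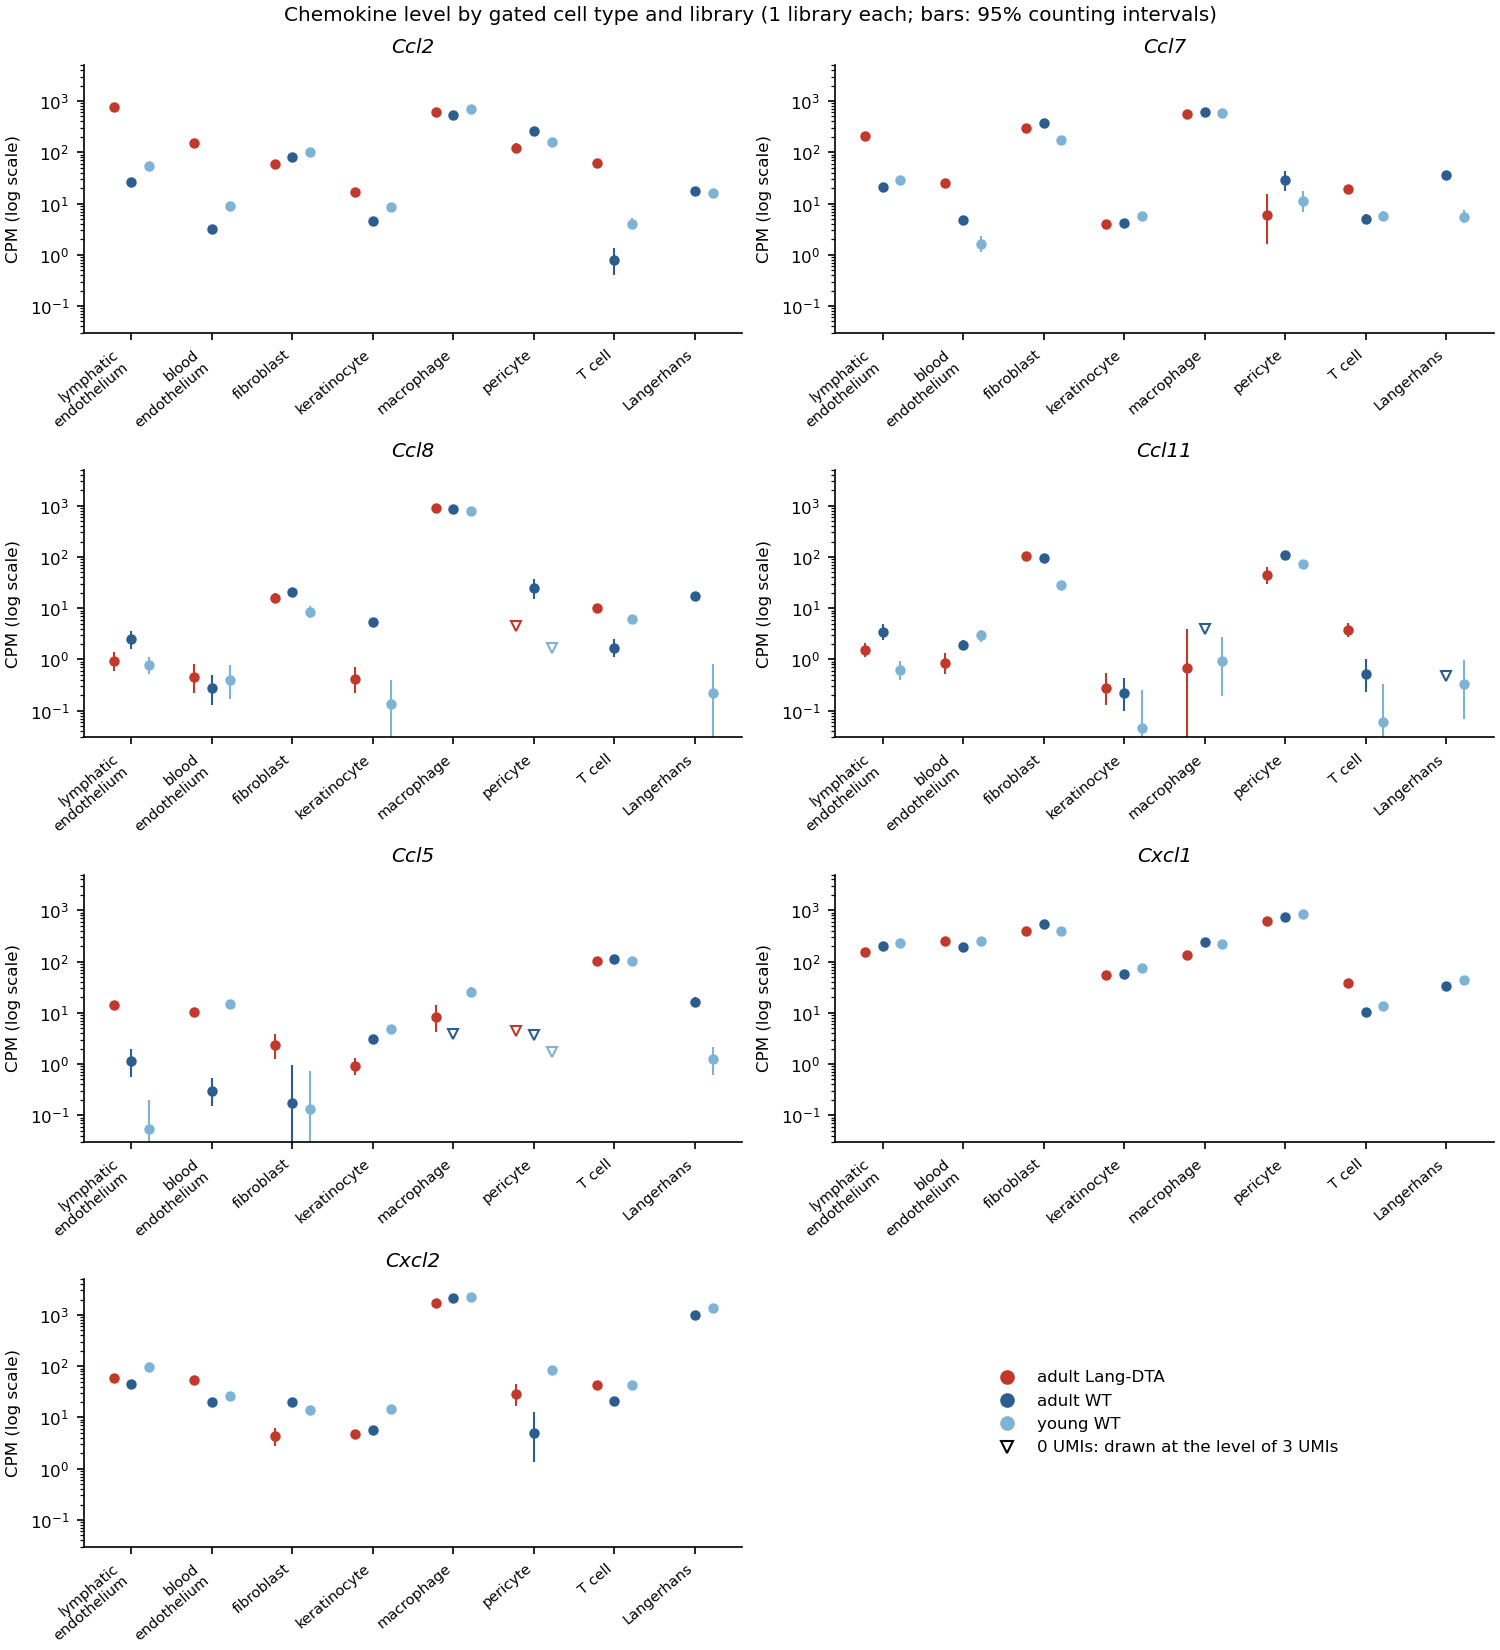
Level of each chemokine (CPM, log scale) in 8 gated cell types, with the libraries side by side as adult Lang-DTA, adult WT and young WT; bars are 95% counting intervals and open triangles mark 0 UMIs, drawn at the level of 3 UMIs. Ccl2 in lymphatic endothelium stands at 769 CPM in adult Lang-DTA, against 26.9 CPM in adult WT, whereas macrophage levels lie close together.

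The 8 chemokines and 5 gates gave 40 pairs, of which 30 in each comparison had at least 30 UMIs over both libraries. Between adult Lang-DTA and adult WT, 8 pairs were at least 2-fold higher and 6 at least 2-fold lower in adult Lang-DTA. The genotype comparison shares the adult WT library with the age comparison that follows it. In lymphatic endothelium 3 of 7 counted chemokines were higher and 2 lower, where 21.8% of all genes passed 2-fold. Blood endothelium had 4 of 6 higher and 1 lower, against 4.85% of all genes. Fibroblasts had 0 of 6 higher and 1 lower (4.33% of all genes), keratinocytes 1 of 6 higher and 2 lower (3.58%), and macrophages 0 of 5 in either direction (7.14%). The median log2 ratio of the counted chemokines was 0.40 in lymphatic and 1.95 in blood endothelium, and that of all genes was 0.03 and 0.07.

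Among the 5 gates, the widest differences resting on over 1000 UMIs were those of Ccl2 in blood and lymphatic endothelium. Lymphatic Ccl2 was at 769 CPM in adult Lang-DTA (19230 UMIs), against 26.9 CPM in adult WT (264 UMIs) and 54.3 CPM in young WT (1991 UMIs). Adult Lang-DTA was thus 28.5-fold above adult WT (interval 25.3 to 32.4). Cells with at least 1 Ccl2 UMI made up 29.8%, 4.48% and 8.33% of the gate, and 21.4%, 2.97% and 5.31% once every cell was thinned to 3000 UMIs. Ccl2 was thus found in more lymphatic cells of adult Lang-DTA and in larger amounts per cell: 269 of them had 10 or more Ccl2 UMIs, against 7 in adult WT and 53 in young WT. Those 269 cells held 93.7% of the gate's Ccl2 UMIs, and 24 of them were called doublets. In adult WT 10 cells held 54.5% of the lymphatic Ccl2 UMIs, and the log2 ratio between genotypes, 4.84, was 5.61 without the top 10 cells of each library. T cells, which should hold little Ccl2, had a Ccl2 UMI in 3.02% of cells in adult Lang-DTA, 0.469% in adult WT and 0.733% in young WT, at median depths of 5814, 7108 and 9131 UMIs, against 9496, 5171 and 7992 in lymphatic cells. Their Ccl2 was at 61.5, 0.787 and 4.07 CPM. Adult Lang-DTA was thus 78.1-fold above adult WT (44.4 to 152, on 691 and 12 UMIs) in the whole T cell gate, a wider ratio than in lymphatic cells at a lower level. Of those 691 UMIs, 488 lay in 140 T cells that also had a UMI of Prox1, Mmrn1, Cdh5 or Ptprb. T cells with none of these, a closer background, held Ccl2 at 21.4, 0.584 and 0.975 CPM. How much of the lymphatic ratio is shared with that background was not tested. The lymphatic difference was present in cells called female (796 against 32.6 CPM) and male (879 against 26.7 CPM). Lymphatic cells held 62.6% of all Ccl2 UMIs in adult Lang-DTA, 13.9% in adult WT and 33.9% in young WT.

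Ccl7, the neighbour of Ccl2 and likewise a monocyte attractant, was at 209 CPM in adult Lang-DTA lymphatic cells, against 20.6 CPM in adult WT and 28.6 CPM in young WT. The genotype difference was 10.1-fold (8.81 to 11.7). Cells with a Ccl7 UMI made up 20.8%, 4.22% and 6.56% of the gate. In fibroblasts, by contrast, Ccl7 was at 305 CPM in adult Lang-DTA and 368 CPM in adult WT (0.83-fold, 0.78 to 0.88), and Ccl2 at 59.1 and 79.6 CPM (0.74-fold). Macrophage Ccl2 was at 622 and 541 CPM (1.15-fold, 1.02 to 1.29), and at 389 and 209 CPM without the top 10 cells of each library. The order of cell types for Ccl2 thus differed between the libraries. In adult Lang-DTA, lymphatic cells with 2 or more Gpnmb UMIs came first at 1113 CPM and macrophages next at 622 CPM. In adult WT, macrophages at 541 CPM and fibroblasts at 79.6 CPM came before lymphatic cells, among the 5 gates.

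The neutrophil chemokines Cxcl1 and Cxcl2 were within 2-fold between adult Lang-DTA and adult WT in the whole lymphatic gate. Cxcl1 was at 153 CPM in adult Lang-DTA, 201 in adult WT and 229 in young WT, with a genotype ratio of 0.76 (0.72 to 0.81). Cells with a Cxcl1 UMI made up 24.3%, 20.9% and 25.0%. In female-called lymphatic cells Cxcl1 was at 175 CPM in adult Lang-DTA and 185 CPM in adult WT, and in male-called cells at 120 and 241 CPM, a log2 ratio of -1.01 that passed 2-fold. Cxcl2 was at 59.3, 44.8 and 95.7 CPM (genotype ratio 1.32, 1.19 to 1.47). The 2 lower chemokines, Ccl8 and Ccl11, rested on 23 and 39 UMIs in adult Lang-DTA and on 24 and 34 in adult WT, and Ccl11 was higher in adult Lang-DTA (log2 ratio 3.56) with raised gate thresholds. Ccl5 was at 14.2 CPM in adult Lang-DTA (354 UMIs), against 1.12 CPM in adult WT (11 UMIs), but 10 of 2367 cells held 87.9% of those 354 UMIs.

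Lymphatic cells with Ccl2 also held Ccl7 and Cxcl1 more often than lymphatic cells without it. Among adult Lang-DTA lymphatic cells with a Ccl2 UMI, 55.4% (391 of 706) also had a Ccl7 UMI, against 6.14% of those without. The shares were 21.4% (15 of 70) and 3.42% in adult WT, and 36.3% and 3.86% in young WT. Cxcl1 was found in 44.6% of Ccl2-positive and 15.6% of Ccl2-negative lymphatic cells of adult Lang-DTA, in 51.4% and 19.5% in adult WT and in 59.0% and 21.9% in young WT. Cells with more UMIs have more of every gene, and the 269 cells with 10 or more Ccl2 UMIs had a median of 13646 UMIs, against 8481 in cells with none, so depth moved with these shares and its part was not tested. On the CPM scale, which allows for depth, the 269 cells held Ccl7 at 1109 CPM, against 15.8 CPM in the 1661 cells without Ccl2. Cxcl10, a T cell attractant, was at 417 and 8.58 CPM in these cells, but only 34 of the 269 (12.6%) held it. Csf1, the growth factor of macrophages, was at 346 and 30.4 CPM, and Cxcl1 at 440 and 68.7 CPM, found in 66.2% and 61.7% of the 269. These genes and the NF-kB subunit Relb (541 and 123 CPM) were picked after their values were seen.

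**Figure D2:**
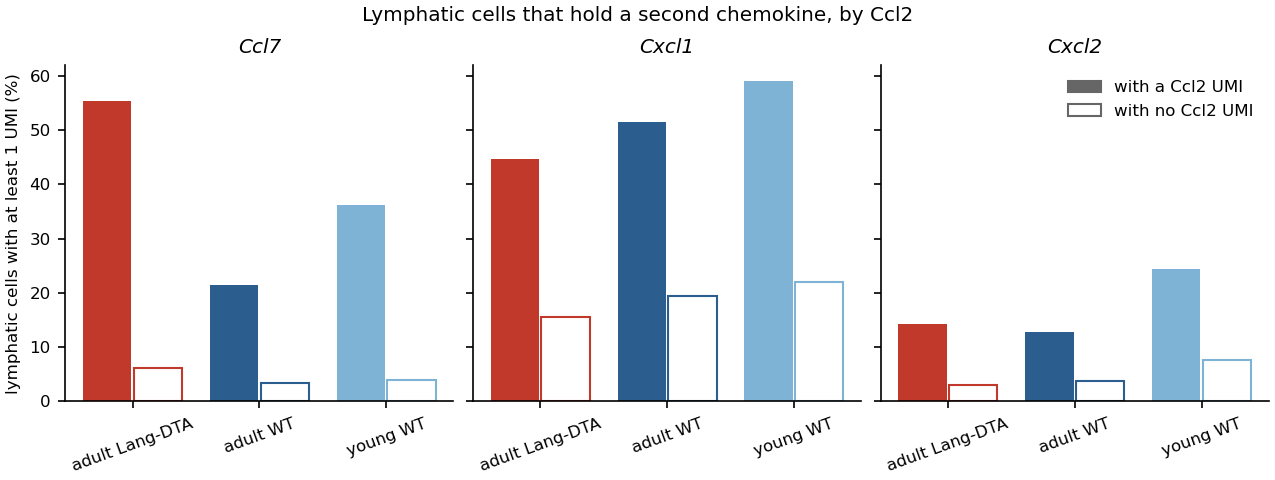
Share of lymphatic cells (%) with at least 1 UMI of Ccl7, Cxcl1 or Cxcl2, for cells with a Ccl2 UMI (filled bars) and cells with none (open bars), in adult Lang-DTA, adult WT and young WT. Filled bars are taller in each library, and the adult Lang-DTA bar for Ccl7 reaches 55.4%.

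Gpnmb, a membrane glycoprotein associated with lysosomes, split the adult Lang-DTA lymphatic cells. It was at 439 CPM in that gate, against 23.3 CPM in adult WT and 19.9 CPM in young WT. The 999 adult Lang-DTA cells with 2 or more Gpnmb UMIs had Ccl2 at 1113 CPM, against 349 CPM in the 1081 cells with none (3.19-fold, 3.07 to 3.31). Ccl7 was at 288 and 110 CPM (2.62-fold, 2.45 to 2.81), while Cxcl1 was at 159 and 144 CPM and Cxcl2 at 47.6 and 52.8 CPM. Ccl5, with 321 and 10 UMIs, was at 25.3 and 1.05 CPM. Of 5 counted chemokines 3 were at least 2-fold higher and 0 lower, where 18.6% of all genes passed 2-fold. The Gpnmb-positive cells had more UMIs (median 11692 against 7384) and fewer mitochondrial UMIs (0.638% against 1.69%), and the part of either in the result was not tested.

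Ccl2 and Ccl7 were also higher in adult Lang-DTA among lymphatic cells without Gpnmb. These held Ccl2 at 349 CPM in adult Lang-DTA, against 26.2 CPM in adult WT (13.3-fold, 11.6 to 15.3), and Ccl7 at 110 against 20.1 CPM (5.46-fold). By Gpnmb count, Ccl2 in adult Lang-DTA was at 349 CPM for 0 UMIs, 644 for 1, 596 for 2 to 4, 1214 for 5 to 9 and 1383 for 10 or more. Ccl7 was at 110, 190.4, 200.2, 291 and 342 CPM. In young WT the CPM ran the other way, on few UMIs: 151 cells with 2 or more Gpnmb UMIs held Ccl2 at 29.7 CPM (56 UMIs), against 56.1 CPM in the 3596 with none, and Ccl7 at 12.7 against 29.6 CPM. The share of Ccl2-positive cells did not follow, at 8.51% with 2 to 4 Gpnmb UMIs, 9.85% with 1 and 8.18% with none. There 0 of 4 counted chemokines were higher and 1, Ccl7, lower, where 9.97% of all genes passed 2-fold. Adult WT had 40 such cells, too few to describe.

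**Figure D3:**
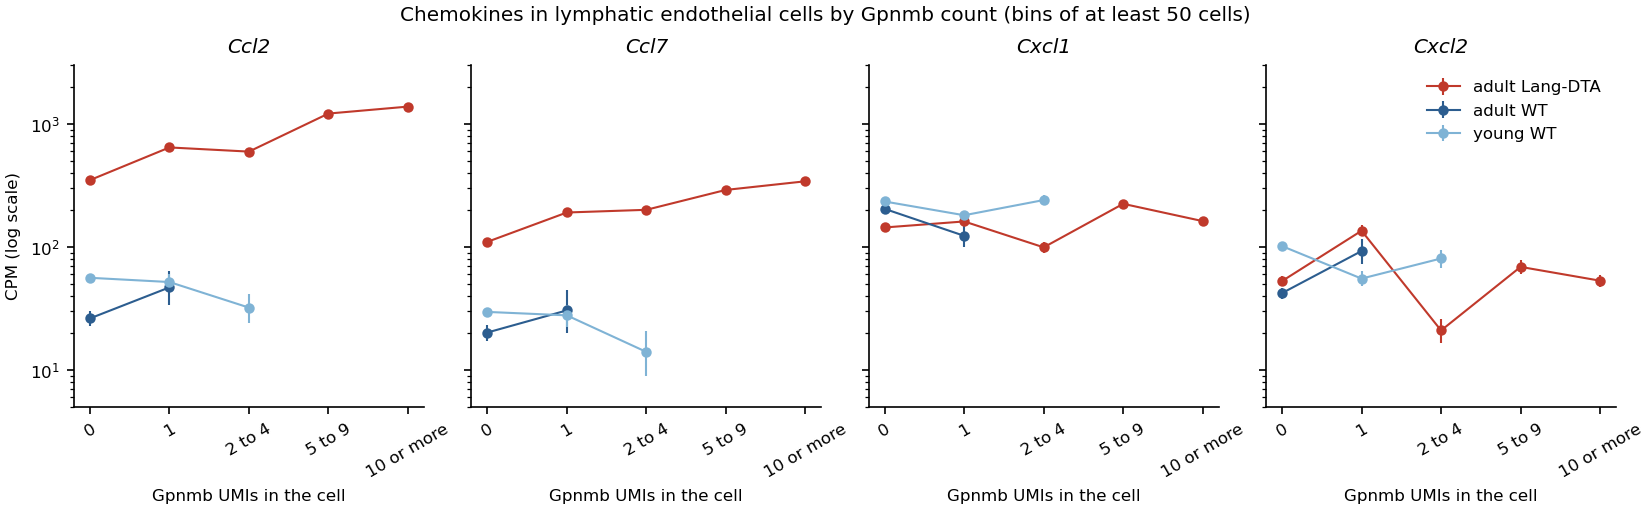
Ccl2, Ccl7, Cxcl1 and Cxcl2 (CPM, log scale) in lymphatic cells by the number of Gpnmb UMIs in the cell, for each library; bars are 95% counting intervals and bins under 50 cells are left out. In adult Lang-DTA Ccl2 lies at 349 CPM with no Gpnmb UMI and at 1383 CPM with 10 or more, whereas Cxcl1 has no such course.

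Lists of related genes were counted in the same way in lymphatic cells, where 12.5% of all genes were at least 2-fold higher and 9.29% lower in adult Lang-DTA (21.8% in all). Of 16 other chemokines and myeloid growth factors, 12 were counted in lymphatic cells, with 5 higher and 2 lower in adult Lang-DTA. Csf1 was at 96.2 CPM in adult Lang-DTA and 15.5 CPM in adult WT, Cxcl10 at 95.5 and 17.6 CPM, and the cytokine Il6 at 10.7 and 44.7 CPM. Of 12 NF-kB targets and regulators, 2 were higher and 4 lower, against those 12.5% and 9.29%, with a median log2 ratio of -0.26. The 2 higher ones, Nfkb2 (41.7 and 18.2 CPM) and Relb (225 and 98.4 CPM), encode subunits of the non-canonical branch and are named after their values were seen. Of 12 immediate early genes, which tissue digestion can switch on, 0 were higher and 6 lower, against 9.29% of all genes lower, with a median of -1.01 against 0.03 for all genes. They summed to 11307 CPM in adult Lang-DTA and 23170 CPM in adult WT, so these genes ran opposite to Ccl2. Their part in the chemokine values was not tested. In blood endothelium 0 genes of either list passed 2-fold, where 4.85% of all genes did.

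Of the receptors, 4 of 8 were counted in lymphatic cells, with 1 higher and 2 lower in adult Lang-DTA, where 21.8% of all genes passed 2-fold. These were Ccr2 (4.64 CPM in adult Lang-DTA and 2.14 CPM in adult WT), Ackr1 (32.0 and 84.0 CPM) and Ackr2, which degrades inflammatory CC chemokines (29.2 and 58.9 CPM), named after their values were seen. Within adult Lang-DTA, the Gpnmb-positive lymphatic cells had lower Ackr1, an atypical receptor that binds chemokines without signalling (7.88 against 73.0 CPM), and lower Sele, an adhesion molecule for leukocytes (11.7 against 197 CPM). Both rested on few cells. Ackr1 was found in 2.41% of lymphatic cells in adult Lang-DTA and 3.52% in adult WT, and Sele in 3.07% of the adult Lang-DTA lymphatic cells without Ccl2. Cxcl10 (145 against 21.8 CPM) and the ligand of Cxcr6, Cxcl16, (49.8 against 7.75 CPM) were higher in the Gpnmb-positive cells.

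Blood endothelial Ccl2 was at 154 CPM in adult Lang-DTA (3772 UMIs in 132 of 2651 cells), against 3.18 CPM in adult WT (116 UMIs in 42 of 3506 cells) and 8.80 CPM in young WT (177 UMIs in 40 of 1728 cells). The genotype ratio was 48.3-fold (40.2 to 58.7). Yet 36 cells with 10 or more Ccl2 UMIs held 94.0% of the adult Lang-DTA UMIs, and 3 of them were called doublets. Flt1, a receptor of blood endothelium, was present in 41.7% of those 36 cells, against 95.8% of the cells without Ccl2. The lymphatic genes Reln and Pdpn were present in 27.8% against 1.03% and in 25.0% against 1.59%, and Gpnmb in 47.2% against 2.22%. So the cells that carried most of the Ccl2 of the blood gate differed from the rest of it in defining markers.

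Stricter gates lowered the adult Lang-DTA level and left a difference. The 420 blood gate cells with at least 1 UMI of Lyve1, Ccl21a, Reln, Pdpn or Flt4 held 63.3% of the gate's Ccl2, at 506 CPM. The 145 cells without a Flt1 UMI held 63.6% of it, at 2283 CPM, whereas the 94 such cells of adult WT held 0 Ccl2 UMIs. With all of those lymphatic genes at 0, Ccl2 was at 69.8 CPM in adult Lang-DTA and 3.18 CPM in adult WT (21.9-fold, 17.9 to 27.2). The strictest gate, chosen after these values were seen, asked for no lymphatic gene, no Gpnmb, a Flt1 UMI and a UMI of Plvap, Emcn or Esam. It left Ccl2 at 69.2 CPM in adult Lang-DTA (2083 cells), 2.71 CPM in adult WT (2918 cells) and 8.23 CPM in young WT (1307 cells), a genotype ratio of 25.6 (20.5 to 32.4). Of the blood gate's Ccl2 UMIs in adult Lang-DTA, 34.5% lay in such cells.

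Within the strictest gate Ccl2 was carried by few cells. It was detected in 80 of 2083 cells of adult Lang-DTA (3.84%, 3.06 to 4.76), against 31 of 2918 in adult WT (1.06%, 0.723 to 1.5) and 26 of 1307 in young WT (1.99%). T cells give a level of background: with no UMI of Prox1, Mmrn1, Cdh5 or Ptprb, 1.82% of adult Lang-DTA T cells (1.20 to 2.64) had a Ccl2 UMI, against 0.336% in adult WT and 0.477% in young WT. Ccl2 in these T cells was at 21.4 CPM in adult Lang-DTA, 0.584 CPM in adult WT and 0.975 CPM in young WT, so the background also differed between genotypes, by a wider ratio than the strictest gate. T cells were shallower, with a median of 5702 UMIs in adult Lang-DTA. The top 10 cells held 84.6% of the Ccl2 UMIs of the strictest gate in adult Lang-DTA. Without them Ccl2 was at 10.6 CPM, against 0.693 CPM in adult WT and 1.29 CPM in young WT left without their own top 10. The T cell levels keep all of their cells, so they cannot be set against these. Thus the blood endothelial level in adult Lang-DTA rests on 13 cells with 10 or more UMIs, 1 of them with 769. Among these 13, Apln was present in 84.6% and Angpt2 in 61.5%, against 26.7% and 14.7% of cells without Ccl2. Apln and Angpt2 mark sprouting or activated endothelium. Gdf15, a stress-induced gene at 2171 CPM in adult Lang-DTA lymphatic cells and 185 CPM in the blood gate, was present in 46.2% of the 13 (1753 CPM), against 4.29% (26.7 CPM) of cells without Ccl2. The blood endothelial genes Flt1 (853 against 1784 CPM) and Plvap (294 against 922 CPM) were lower in the 13 cells. So were Esam (334 against 503 CPM) and Emcn (382 against 574 CPM), though Emcn was present in 92.3% against 85.4%. Cd34, also a blood endothelial gene, was higher, at 365 against 293 CPM and in 92.3% against 79.8% of cells. In the lymphatic gate of adult Lang-DTA, Cd34 was at 27.2, Esam at 51.9 and Flt1 at 84.1 CPM, below the 13 cells. Plvap at 279 CPM and Emcn at 380 CPM lay near the levels of the 13 cells. These genes were picked after their values were seen. The 13 cells thus carried blood endothelial genes, Flt1, Plvap, Emcn and Esam at lower and Cd34 at higher levels, together with a gene that was high in the lymphatic gate. Ccl7 was present in 1 of the 13 cells (7.69%), and in 0.30% of the cells of this gate without Ccl2. It was present in 83.6% of the 269 lymphatic cells with 10 or more Ccl2 UMIs. Whether lymphatic cells with little Prox1 were among the 13 was not tested.

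**Figure D4:**
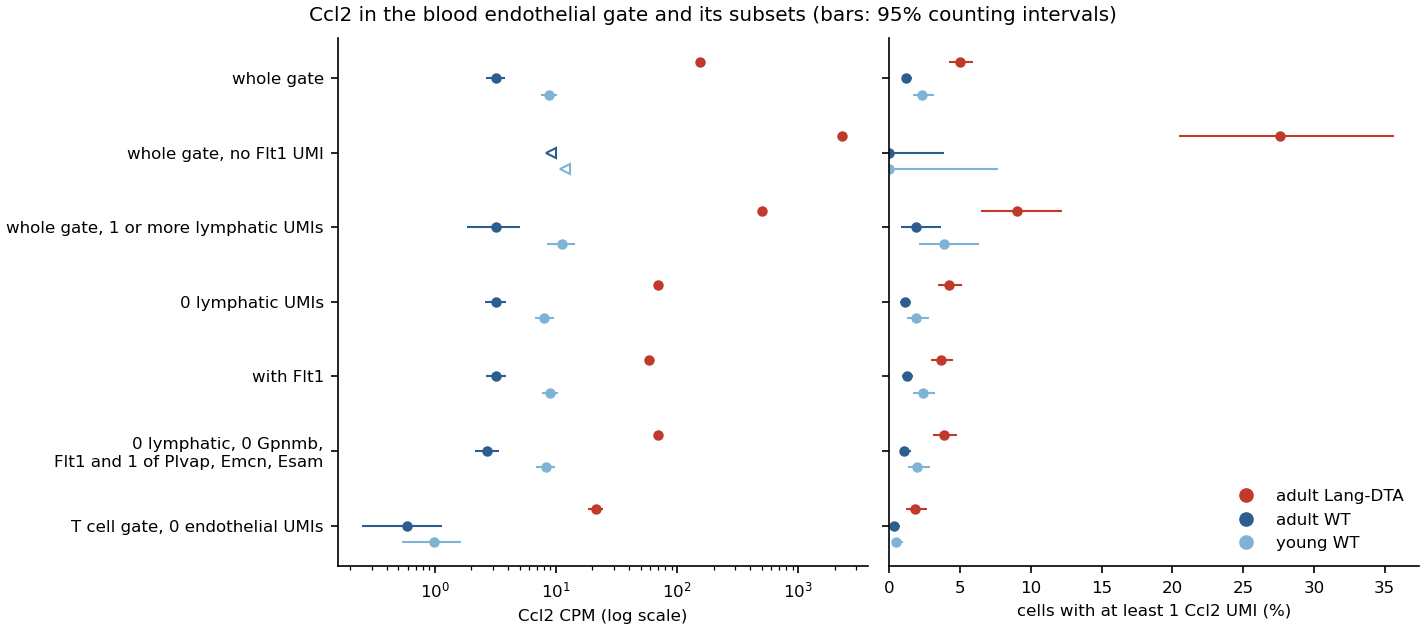
Ccl2 in the blood endothelial gate, in subsets of it and in T cells without endothelial UMIs, as CPM (left, log scale) and as the share of cells with at least 1 UMI (right, %), with 95% counting intervals; open triangles mark the upper bound where no UMI was found. Adult Lang-DTA stands at 154 CPM in the whole gate, 2283 CPM in its cells without Flt1 and 69.2 CPM in the strictest gate, above both WT libraries.

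Of the other chemokines in blood endothelium, Cxcl2 was higher and Ccl7 depended on the gate. Cxcl2 was at 54.7 CPM in adult Lang-DTA, against 19.8 CPM in adult WT (2.76-fold, 2.52 to 3.02) and 26.2 CPM in young WT, and at 46.7 against 21.9 CPM in the strictest gate (2.14-fold, 1.93 to 2.37). The difference was present in female-called (46.4 against 15.8 CPM) and male-called cells (75.2 against 21.2 CPM). Cxcl1 was at 251 CPM in adult Lang-DTA, 189 CPM in adult WT and 249 CPM in young WT, a genotype ratio of 1.33 (1.28 to 1.38). It was the chemokine found in the most blood endothelial cells, 37.5%, 37.3% and 41.4% of them. Ccl7 was at 25.5 CPM, against 4.69 CPM in adult WT, but in the strictest gate it rested on 14 and 8 UMIs (2.82-fold, 1.10 to 7.76). Ccl5, at 10.4 CPM in adult Lang-DTA and 0.302 CPM in adult WT, lay in 13 and 10 cells. Ccl11 was at 0.856 and 1.92 CPM.

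Selp, the P-selectin of venules, split blood endothelium in each library. Cxcl2 was lower in cells with 2 or more Selp UMIs than in cells with none: 21.1 against 81.0 CPM in adult Lang-DTA, 11.4 against 29.0 CPM in adult WT and 12.4 against 37.8 CPM in young WT. Cxcl1 had no common direction, at 227 against 275 CPM in adult Lang-DTA, 228 against 152 CPM in adult WT and 236 against 266 CPM in young WT. Ccl2 in adult Lang-DTA was at 144 CPM in Selp-positive and 165 CPM in Selp-negative cells, so its level did not set them apart by 2-fold. Of 5 counted chemokines in adult Lang-DTA 0 were at least 2-fold higher and 2 lower (14.3% of all genes passed), in adult WT 1 of 5 was higher and 1 lower (14.5%) and in young WT 1 of 6 was higher and 2 lower (14.1%). In all 3 libraries Sele, Ackr1 and the neutrophil growth factor Csf3 were higher in Selp-positive cells, Csf3 at 71.4 against 1.87 CPM in adult Lang-DTA, 52.7 against 3.97 CPM in adult WT and 38.1 against 1.57 CPM in young WT.

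Some Ccl2 of adult Lang-DTA fell in cells that no gate took, which held 19.8% of its Ccl2 UMIs, at 237 CPM, against 20.8 CPM in adult WT. Among them 135 cells had 5 or more Ccl2 UMIs, and these held Lyve1 at 987, Gpnmb at 710, Cdh5 at 461 and Prox1 at 51.8 CPM. In adult WT 16 such cells held Col1a1, a fibroblast collagen, at 11962 CPM, and in young WT 40 such cells held the myeloid gene Lyz2 at 4797 CPM. The ungated Ccl2 cells of adult Lang-DTA thus carried endothelial and lymphatic genes. Their low Prox1 was set by the gating, since the lymphatic gate took every cell with 2 or more Prox1 UMIs.

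Keratinocytes held Ccl2 at 16.9 CPM in adult Lang-DTA (65 of 2742 cells), against 4.66 CPM in adult WT (34 of 2486), a 3.62-fold difference that ran the other way in male-called cells (log2 ratio -0.72) and did not reach 2-fold without called doublets. The share of positive keratinocytes in adult Lang-DTA was 2.37%, between that of T cells without endothelial UMIs (1.82%) and of the whole T cell gate (3.02%). The keratinocytes were deeper, with a median of 11105 UMIs, against 5702 and 5814 in these T cells. On the CPM scale their Ccl2, 16.9 CPM, lay below that of both T cell sets (21.4 and 61.5 CPM). Keratinocyte Cxcl1 was at 54.3 CPM in adult Lang-DTA and 56.1 CPM in adult WT. Fibroblast Cxcl2 was the one fibroblast chemokine that passed 2-fold, at 4.29 CPM (26 UMIs in 6 cells) in adult Lang-DTA, against 20.3 CPM (117 UMIs in 17 cells) in adult WT. Keratinocyte Ccl8 and Ccl5 were lower in adult Lang-DTA and rested on 11 and 6 positive cells in adult WT. In macrophages Ccl7 (548 and 623 CPM), Ccl8 (908 and 864 CPM), Cxcl1 (135 and 237 CPM) and Cxcl2 (1724 and 2131 CPM) stayed within 2-fold between adult Lang-DTA and adult WT.

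**Figure D5:**
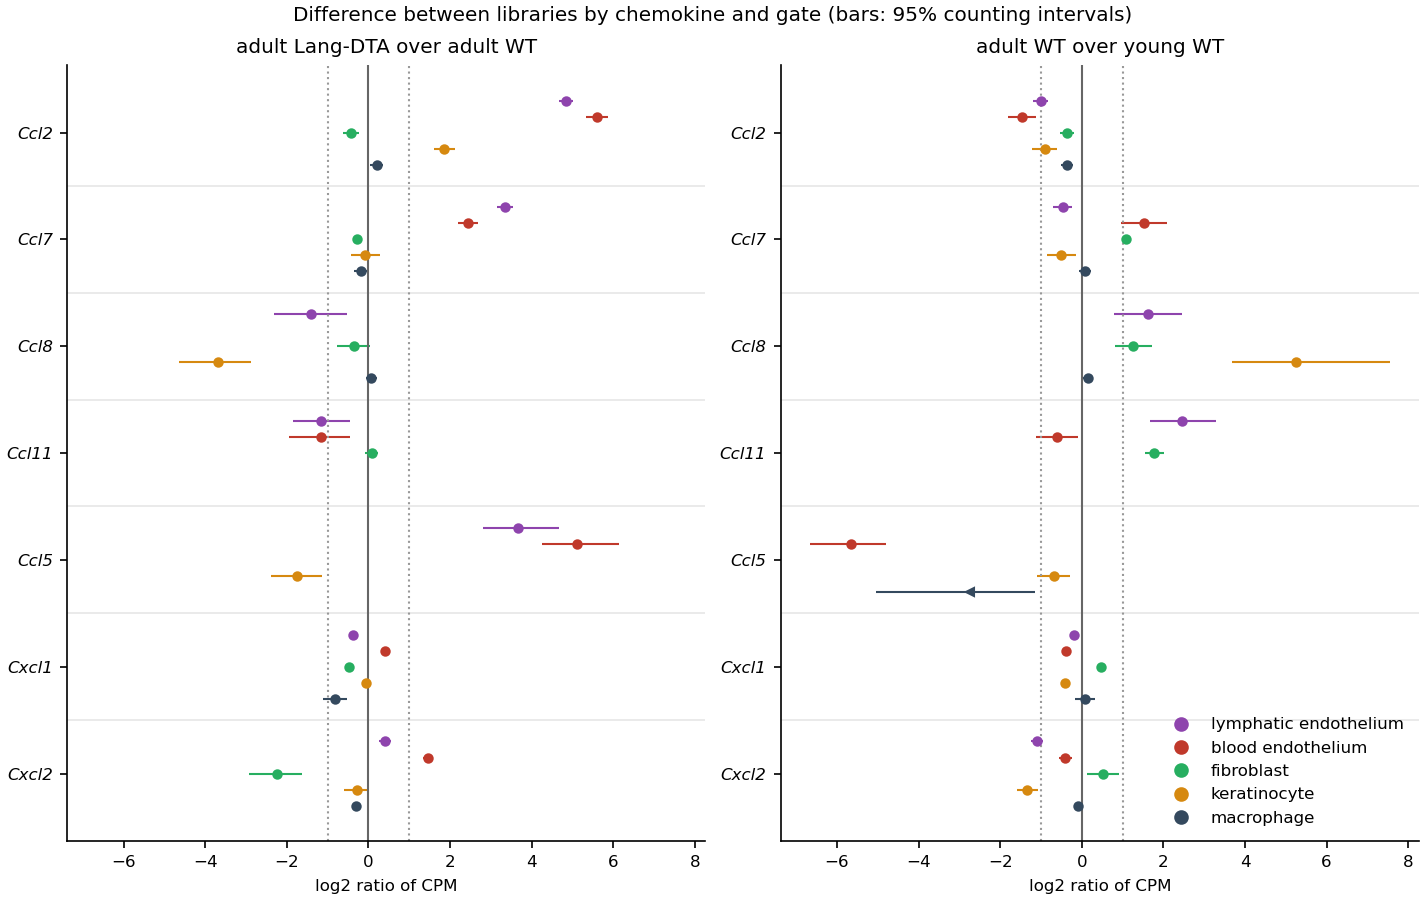
Log2 ratio of CPM for each chemokine in 5 gates, adult Lang-DTA over adult WT (left) and adult WT over young WT (right); bars are 95% counting intervals, dotted lines mark 2-fold, pairs under 30 UMIs are left out and a triangle marks an upper bound. Ccl2 lies at 4.84 in lymphatic and 5.60 in blood endothelium in the left panel, and fibroblast Ccl7, Ccl8 and Ccl11 lie above 1 in the right panel.

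Between adult WT and young WT, 7 pairs were at least 2-fold higher and 6 at least 2-fold lower in adult WT. Fibroblasts had 3 of 6 counted chemokines higher and 0 lower, where 7.2% of all genes passed 2-fold. Lymphatic endothelium had 2 of 6 higher and 2 lower (9.54%), blood endothelium 1 of 6 higher and 2 lower (6.63%), keratinocytes 1 of 6 higher and 1 lower (5.85%), and macrophages 0 of 6 higher and 1 lower (8.71%). The median log2 ratio of all genes in fibroblasts was -0.12, against 0.81 for the counted chemokines.

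The 3 fibroblast genes all belong to the chromosome 11 cluster. Ccl11 was at 97.0 CPM in adult WT, against 28.3 CPM in young WT (3.43-fold, 2.92 to 4.03), and was detected in 26.9% and 16.4% of fibroblasts. Ccl7 was at 368 against 173 CPM (2.13-fold, 1.99 to 2.28), and Ccl8 at 20.3 against 8.45 CPM (2.40-fold, 1.75 to 3.32). Ccl2, the fourth gene of the cluster, was at 79.6 against 102 CPM (0.78-fold, 0.70 to 0.88). Ccl11 was higher in female-called (126 against 29.0 CPM) and male-called fibroblasts (94.3 against 29.7 CPM), and so was Ccl7 (437 against 197 and 334 against 181 CPM). Ccl7 did not reach 2-fold in male-called cells (log2 ratio 0.88) or with raised gate thresholds (0.81). Ccl8 was higher in female-called cells (38.2 against 7.0 CPM) and lower in male-called cells (7.60 against 11.6 CPM). The interferon-induced chemokines Cxcl9 (36.4 against 7.11 CPM) and Cxcl10 (70.8 against 25.6 CPM) were also higher in adult WT fibroblasts, and Il34, a ligand of the Csf1 receptor, was lower (28.5 against 63.9 CPM).

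Ccl2 in both endothelial gates was lower in adult WT than in young WT. In lymphatic cells it was at 26.9 against 54.3 CPM (0.50-fold, 0.43 to 0.56), next to the 2-fold limit, and Cxcl2 was at 44.8 against 95.7 CPM (0.47-fold, 0.42 to 0.52). Neither passed 2-fold without called doublets, where the log2 ratio of Ccl2 was -0.82. Cxcl1 was at 201 against 229 CPM and Ccl7 at 20.6 against 28.6 CPM. In blood endothelium Ccl2 was at 3.18 against 8.80 CPM (0.36-fold, 0.28 to 0.46), and in the strictest gate at 2.71 against 8.23 CPM. There the top 10 cells held 74.4% and 84.3% of the UMIs, and without them Ccl2 was at 0.693 against 1.29 CPM. Rgs5, a pericyte gene, was present in the 1 adult WT cell with 10 or more Ccl2 UMIs (2673 CPM) and in 3 of the 4 such young WT cells (4994 CPM), and pericytes held Ccl2 at 260.2 and 162.5 CPM. The part of pericyte RNA in the blood endothelial values was not tested. Several other differences by age rested on few cells. Blood endothelial Ccl5, at 0.302 against 15.1 CPM, came from 4 young WT cells, and keratinocyte Ccl8, with 188 against 3 UMIs, from 11 adult WT cells. Macrophage Ccl5 had 0 UMIs in adult WT, against 81 in 3 young WT cells. The 2 chemokines higher in adult WT lymphatic cells were Ccl8 (2.45 against 0.791 CPM, 24 and 29 UMIs) and Ccl11 (3.47 against 0.627 CPM, 34 and 23 UMIs). Without the top 10 cells, adult WT had 0 UMIs of either. Blood endothelial Ccl7, at 4.69 against 1.64 CPM, came from 17 and 13 cells. Its direction turned in the strictest gate (0.264 against 0.612 CPM, 8 and 9 UMIs), in female-called cells (log2 ratio -1.18, 6 and 7 UMIs) and in male-called cells (-2.97, 5 and 24 UMIs).

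Over 20 points, the gates and subsets of gates in each library that held at least 50 cells, the genes whose log2(CPM + 10) followed each chemokine most closely were found among 7134 genes, as a description in which points share libraries. Ccl2 was followed by the lysosomal genes Arl8a (r = 0.89), Hexa (0.89) and Lamp1 (0.88), all highest in Gpnmb-positive lymphatic cells of adult Lang-DTA. Ccl7 was followed by Slc41a2 (0.96), Ccl8 by Tmem106a (0.99), Ccl11 by Vit (0.99), Cxcl1 by Fndc3b (0.93) and Cxcl2 by Cyth4 (0.97). The likeness for Ccl8 and Cxcl2 reflects 1 gate, macrophages, that stands above all others among these points, and so does fibroblasts for Ccl11. The points behind the Ccl2 likeness include lymphatic cells split by Gpnmb, itself associated with lysosomes.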

How the data were processed

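Per the labels, ears were digested with collagenase, dispase and DNase, and 10x 3' v4 libraries were sequenced. The authors deposited whole-number UMI counts per gene and barcode, made with Cell Ranger (8.01 in the submitters' processing notes, 8.0.1 per the file headers) on GRCm38. Imiquimod-treated skin named in the labels was not analysed here. Deposited barcodes numbered 13540 in adult Lang-DTA, 13600 in adult WT and 12864 in young WT. Barcodes under 500 genes or 1000 UMIs, or above 10% mitochondrial UMIs, were left out. The 8 chemokines and the gene lists were chosen with earlier results of these data known.

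Gates on raw UMIs were Prox1 of at least 2 (lymphatic; split at Gpnmb of at least 2 or 0), Cdh5 plus Ptprb of at least 3 with Prox1 and Mmrn1 at 0 (blood; split at Selp of at least 2 or 0), Dpt of at least 2 (fibroblast), Krt5 plus Krt14 of at least 0.3% of UMIs (keratinocyte) and C1qa, C1qb and C1qc summing to at least 5 (macrophage). Further gates took T cells (Cd3d, Cd3e and Cd3g of at least 3), Langerhans cells (Cd207 of at least 5) and pericytes (Rgs5 of at least 3 without Cdh5 or Ptprb). Cells of more than 1 gate (148, 123 and 128) stayed in each. Counts were summed per gate and library and divided by its total UMIs. Intervals are exact Poisson (CPM), exact binomial Clopper-Pearson (shares) and exact conditional (ratios). A pair or gene needed at least 30 UMIs over both sets and 50 cells in each, and was counted at 2-fold or more. Doublets were scored against simulated doublets and kept, except in an alternative. The ratio step was tested on simulated data. From the fixed lists, the text names up to 4 genes per gate and comparison with at least 30 CPM and 2-fold difference, largest first, and any others as chosen after their values were seen. Python 3.11.15, numpy 2.4.6, scipy 1.17.1, pandas 2.3.3 and scikit-learn 1.9.0 were used. Alternatives are given with the results that depend on them.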

Additional observations from a re-analysis of the deposited data

Results flagged for a closer look

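Patterns of 4 genes ran in opposite directions between groups of cells under the same contrast, adult Lang-DTA over adult WT, and none of these differences was tested. The log2 ratio of Ccl5 was 3.66 in lymphatic and 5.11 in blood endothelium and -1.74 in keratinocytes, with few positive cells in each. That of Cxcl2 was 1.46 in blood endothelium and -2.24 in fibroblasts, where adult Lang-DTA had 6 positive cells. Fibroblast Ccl8 had a log2 ratio of -1.35 in female-called cells and 1.22 in male-called cells, on 52 and 33 UMIs in adult Lang-DTA and 94 and 20 in adult WT. Macrophage Cxcl1 had a log2 ratio of -1.84 in female-called cells (86 in adult Lang-DTA and 39 in adult WT) and 1.12 in male-called cells (37 and 24), both resting on fewer than 50 cells in a library.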

How the results depend on the processing

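The results kept their direction in most alternatives, and the counts of pairs moved most. Of the 6 pairs lower in adult Lang-DTA, 0 were left when cells were thinned to 3000 UMIs and 0 without the 10 cells with the most UMIs of each gene (an alternative chosen after seeing the data), since the pairs then fell under 30 UMIs. The count of 8 higher pairs stayed within 1.5 times under each alternative. Against young WT, the count of higher pairs, 7, was 4 in female-called cells, 4 in male-called cells, 3 when thinned and 3 without the top 10 cells. The count of lower pairs, 6, was 3 without called doublets and 2 in female-called cells. These counts can include pairs that newly passed 2-fold. Of the 13 pairs counted by age at first, 5 kept direction and 2-fold in female-called cells, 6 in male-called cells and 5 when thinned. Without called doublets 6 did, and without the top 10 cells 6 did. The rest fell under 2-fold, turned or had under 30 UMIs. The log2 ratio of Ccl2 in blood endothelium, adult Lang-DTA over adult WT (5.60), was 5.96 in cells of exactly 1 gate, 6.13 without called doublets, 5.95 with raised gates, 6.27 in male-called cells, 5.03 without the top 10 cells, 4.46 with no lymphatic gene and, in gates added after seeing the data, 4.18 with Flt1 and 4.68 in the strictest. In lymphatic cells (4.84) it was 4.61 in female-called cells, 5.04 in male-called cells and 5.61 without the top 10 cells. Against young WT, Ccl2 in blood endothelium (-1.47) was -1.97 without doublets, -2.06 with raised gates and -1.90 in female-called cells, and in lymphatic cells (-1.01) -0.82 without doublets, -0.80 in male-called cells and -1.73 without the top 10 cells. Among pairs past 2-fold in the main values, 5 values reversed. By genotype these were lymphatic Ccl11 to 3.56 with raised gates and keratinocyte Ccl2 to -0.72 in male-called cells. By age they were fibroblast Ccl8 to -0.61 in male-called cells and keratinocyte Cxcl2 to 0.20 without doublets and 0.49 without the top 10 cells. Pairs within 2-fold also turned in male-called cells, among them fibroblast Ccl8 by genotype (-0.36 to 1.22). By age, keratinocyte Ccl2 (-0.91 to 0.53), fibroblast Ccl2 (-0.35 to 0.25) and lymphatic Cxcl1 (-0.19 to 0.25) did. Apart from the counts and the endothelial Ccl2 ratios, 192 alternative values lay outside the interval of the main value and 290 within it. The cause was not tested. No paired analysis was possible because each condition had 1 library. Pooled animals, sorting and digestion cannot be told apart from genotype or age, and genes with few UMIs are limited by depth.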
